A study of Mus musculus with 18 samples.

Results

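Immediate early genes that encode transcription factors, and genes induced with them, were followed in mouse stem and non-stem cells after ionizing radiation (IR). The group held 10 genes, chosen by symbol from 34289 distinct gene names on the array: Fos, Fosb, Fosl1, Jun, Junb, Egr1, Egr2, Atf3, Ier2 and Ier3. Each was read by 1 probe, whose transcript accession was matched to its symbol in RefSeq. The cells were primary, early passage embryonic stem (ES) cells from blastocysts, grown with leukemia inhibitory factor and no feeder cells, and isogenic non-stem (ED) cells. ED cells were obtained from ES cells by undirected differentiation without that factor and without beta-mercaptoethanol. The labels give this as 1 week or as long as stem cell markers persisted. Unirradiated cells formed the ES and ED groups. A dose of 10 Gy was followed by collection at 15 min (ESRE from ES cells, EDRE from ED cells) or at 4 h (ESRL and EDRL), with 3 samples in each of the 6 groups, 1 array per sample. ED cells are not a single defined cell type, and the stem cells are given as wild type.

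Immediate early genes are transcribed within minutes of a stimulus without new protein synthesis, from promoters held ready by serum response factor with its ETS partners and by CREB. Fos and Jun proteins pair to form the AP-1 dimer, Egr proteins are zinc-finger activators held in check by the Nab corepressors, and ATF3 is a stress-induced leucine zipper relative of Fos and Jun that often acts as a repressor. Growth factors, stress kinases and DNA damage all induce them, usually briefly, so that samples at 15 min and at 4 h look at different phases of such a response.

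The promoters of Fos and Egr2 are shown because both genes were higher in ED cells after IR and have an entry in the RefSeq promoter table used here (GRCm38.p6; 250 bases before the start to 50 after). Capitals mark TGACG in either direction, the core of the CREB and ATF binding element, and, in Egr2 only, the CArG box, the element bound by serum response factor. The table held 11 starts of 7 of the 10 genes that could be read here, and the Egr2 start shown is 1 of 5 listed.
Fos, chr12:85473640-85473939, + strand: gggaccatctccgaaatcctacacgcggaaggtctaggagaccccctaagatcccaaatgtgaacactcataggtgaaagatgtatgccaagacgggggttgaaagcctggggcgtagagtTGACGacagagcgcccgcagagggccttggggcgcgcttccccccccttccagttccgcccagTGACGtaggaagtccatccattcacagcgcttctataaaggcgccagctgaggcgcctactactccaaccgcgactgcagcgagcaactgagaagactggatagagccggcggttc
Egr2, chr10:67537619-67537918, + strand: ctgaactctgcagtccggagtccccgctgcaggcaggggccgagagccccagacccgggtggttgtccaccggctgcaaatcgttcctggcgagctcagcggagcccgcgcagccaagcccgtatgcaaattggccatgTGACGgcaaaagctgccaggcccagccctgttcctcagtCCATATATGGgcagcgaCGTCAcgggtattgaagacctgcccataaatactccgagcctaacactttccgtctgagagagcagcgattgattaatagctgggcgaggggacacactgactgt
In Fos, TGACG began 129 and 66 bases before the start and a TATAAA 33 bases before it. In Egr2, the CArG box began 72 bases before the start, with TGACG at 111 and 55 bases. Searched on both strands of 32851 promoters of this length, the CArG box was found in 1.63% and TGACG in 20.8%. Among the 7 genes, the CArG box was found in Egr2 alone, at 4 of its 5 starts, where overlapping windows of some starts hold the same box. TGACG was found in 5 genes (Fos, Fosb, Junb, Egr2 and Atf3). These are matches of letters in a short window and do not show binding.

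Signals were put on the log2 scale relative to the 75th percentile of each array, so that 0 is the brightness of that percentile, and levels are compared between samples for 1 gene, never between genes. All 180 member values, 10 genes on 18 arrays, were well above background and none was saturated. EDRE replicates 2 and 3 were dim: their 75th percentiles were 875 and 1155, that of ESRL replicate 1 was 1952, and the other 15 arrays had 2806 to 4268. The scanner software marked 24.4% and 23.8% of spots as outliers on the 2 dim EDRE arrays, against 3.33% to 11.1% on the rest. Outlier spots were left out, so that Fosl1, Jun, Egr2, Atf3 and Ier3 had their EDRE value from replicate 1 alone, and Fos from replicates 1 and 3. Where a group had 1 value, the model took its spread from the other groups. The spot of Ier2 was marked on all 18 arrays, as were 112 probes in all (0.301%), which left 9 genes with a test. Arrays that shared a scan time were taken as 1 slide. By this inference the ES arrays were on slide 1 and the ED arrays on slide 3 with ESRE replicate 3. The dim EDRE replicates 2 and 3 were together on slide 6 with no other sample, and ESRL replicate 1 was alone on slide 4. No irradiated sample shared a slide with the unirradiated cells of its own kind. Slide therefore cannot be told apart from IR in comparisons with unirradiated cells, nor from cell type between ED and ES, and only 4 h against 15 min can be set within slides. The labels say that samples were made in triplicate, not whether from separate cultures, so p-values measure only the spread between these samples.

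**Figure D1:**
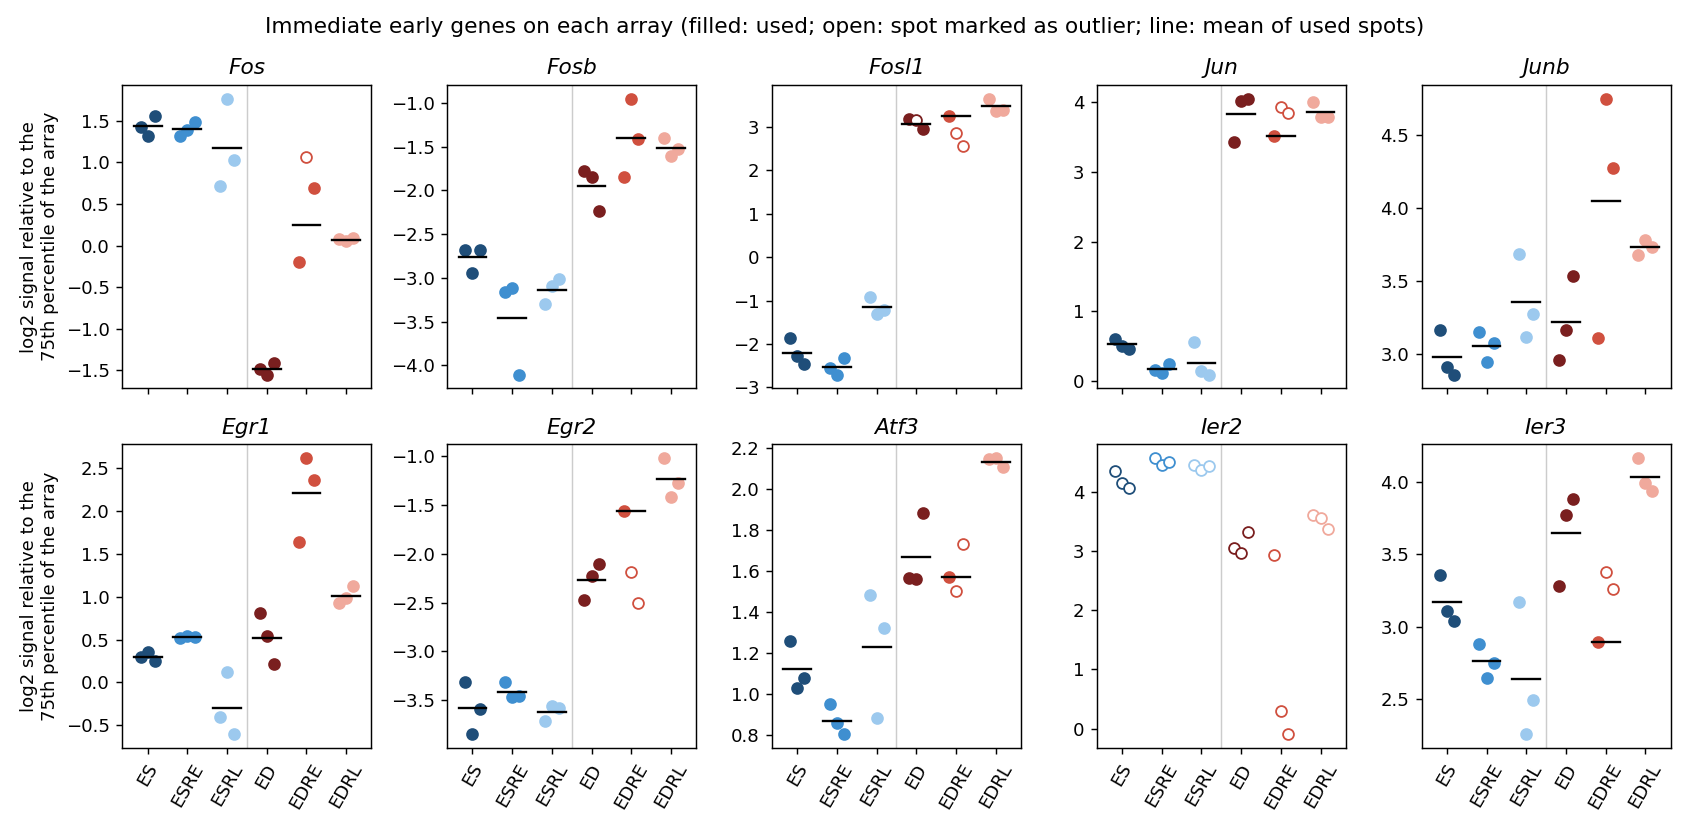
Level of the 10 immediate early genes on each array, as log2 signal relative to the 75th percentile of that array, in ES cells (blue, left) and ED cells (red, right) before and after IR. Filled points were used, open points are spots marked as outliers and black lines are means of used points. Fosl1 was at most -0.91 on arrays of ES cells and at least 2.57 on those of ED cells, Fos in EDRE (up to 1.06, marked) reached into the range of ESRL (from 0.71), and the Ier2 spot was marked on all 18 arrays.

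The labelled cell types were checked with marker genes. In ED against ES, 7 of 7 ES cell markers tested were lower, among them Sox2 (log2 change -2.37) and Pou5f1, which encodes Oct4 (-10.29). Of 8 fibroblast or mesenchymal markers 7 were higher and Thy1 was lower, at least 400-fold since no ED array was well above background. Among those tested, 4 of 4 epithelial, 3 of 3 endothelial and 3 of 3 primitive endoderm markers were lower. Of 4 neural markers, 1 was higher (Map2) and 1 lower (Pax6, -1.41). The summed log2 level of the ES cell markers was 8.84 to 9.46 on the 9 arrays of ES cells and 2.33 to 3.54 on the 9 arrays of ED cells. After IR, Pou5f1 changed by -1.68 in EDRE against ED (adjusted p = 0.00634), and by 1.58 in EDRL against EDRE (adjusted p = 0.00402). Of the markers of primitive endoderm, Sox17 changed by -1.44 in EDRE against ED (adjusted p = 0.0111), and Sox17 and Gata4 changed by -1.18 and -1.07 in ESRL against ES (adjusted p = 0.0169 and 0.0437). Pou5f1 and Sox17 were well above background on 1 of 3 EDRE arrays. The neural marker Pax6 changed by -1.39 in EDRL against EDRE. What part these shifts have in the values below was not tested, and in bulk samples fewer cells of a type and less RNA per cell cannot be told apart.

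Before IR, ED cells had less Fos than ES cells, and far more of its relative Fosl1 (FRA-1) and its partner Jun, while Fosb and Junb were not called. The log2 level of Fos was 1.43, 1.32 and 1.55 in the 3 ES samples and -1.49, -1.55 and -1.41 in the 3 ED samples. The groups lay far apart and each was tight, with a change of -2.91 (SE 0.25, limma adjusted p = 2.52e-07), or 7.53-fold lower. Fosl1 read -1.87, -2.28 and -2.46 in ES and 3.17 and 2.96 in ED replicates 1 and 3, with the ED spot of replicate 2 (3.16) marked. Its rise was 5.27 (SE 0.22, adjusted p = 1.23e-09), or 38.6-fold. Jun, the main partner of Fos proteins in AP-1, read 0.61, 0.49 and 0.46 in ES and 3.42, 4.01 and 4.05 in ED, a rise of 3.31 (SE 0.19, adjusted p = 9.04e-09), or 9.91-fold. Every ED sample was above every ES sample for both genes.

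Among the zinc-finger genes, Egr2 (Krox20) was higher in ED cells and Egr1 was not called. Egr2 read -3.31, -3.85 and -3.59 in ES and -2.48, -2.22 and -2.10 in ED, a rise of 1.32 (SE 0.17, adjusted p = 3e-05) that was not called with slide as a random block (adjusted p = 0.0846). Egr1 read 0.29, 0.36 and 0.25 in ES and 0.81, 0.54 and 0.21 in ED, which overlapped, with a difference of 0.22 (95% interval -0.29 to 0.74). In all, 4 of 9 members tested were called, which required an adjusted p below 0.05 together with a log2 difference larger than 1 in either direction, against 41.5% of all genes tested, so the members' share was close to the background. Fosb and Atf3 had adjusted p of 0.0174 and 0.0166 but changes of 0.81 and 0.55, under the limit of size. Junb differed by 0.24 (95% interval -0.42 to 0.91) and Ier3, a survival gene that shares the early kinetics, by 0.48 (95% interval -0.03 to 0.98). Scaling each array to its median moved the median of all probes from -0.19 to 0.46 in this comparison. There 7 members were called, 6 higher and 1 lower in place of 3 and 1, with Fosb at 1.46, Atf3 at 1.20 and Ier3 at 1.13 added. The slide that held ED also held ESRE replicate 3, an irradiated ES sample: there Fos read 1.49, Fosl1 -2.33, Jun 0.24 and Egr2 -3.45, each on its ES side of all 3 ED values.

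At 15 min after IR, Fos and Egr1 were higher in ED cells and no member was called in ES cells. Egr1, whose product is among the first made after a stimulus, read 0.81, 0.54 and 0.21 in ED and 1.64, 2.61 and 2.36 in EDRE. Every irradiated sample was above every control, with the dim replicates 2 and 3 the highest. The rise was 1.68 (SE 0.24, adjusted p = 0.00291), or 3.21-fold. Fos read -1.49, -1.55 and -1.41 in ED, and -0.20 and 0.69 in EDRE replicates 1 and 3, with the marked spot of replicate 2 at 1.06. Again no irradiated value reached the controls, and the rise was 1.73 (SE 0.28, adjusted p = 0.00638), or 3.32-fold. Fos was higher before scaling too, with processed signals of 1522, 1290 and 1308 in ED and 2650, 1821 (marked) and 1864 in EDRE. Processed signals of Egr1 overlapped, at 7487, 5511 and 4016 in ED and 9435, 5350 and 5926 in EDRE.

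These 2 of 9 members compare with 5.2% of all genes tested in EDRE against ED. With EDRE replicate 1 alone, the sample that was not dim, the changes were 1.12 for Egr1 and 1.29 for Fos (adjusted p = 0.0472 and 0.0404), with the spread taken from the other groups. Without EDRE replicate 3, Fos again rested on replicate 1 and was not called (1.29, adjusted p = 0.055). Neither was called with slide as a random block (adjusted p = 0.942 for Fos and 1 for Egr1) or with only the 6 arrays compared in the model (adjusted p = 0.17 for both). Those settings called 1 of 22404 and 0 of 22294 genes tested, so the lost calls are not particular to Fos and Egr1.

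The other members in EDRE did not pass. Egr2 read -1.56 in EDRE replicate 1, above all 3 ED samples, while the marked spots of replicates 2 and 3 read -2.19 and -2.51, within or below them, and its change was 0.71 (adjusted p = 0.0841). Scaled to the array median it was called, at 1.05. Junb, an AP-1 subunit that can oppose Jun, read 3.11 in EDRE replicate 1 and 4.75 and 4.28 in the dim replicates 2 and 3, against 2.96, 3.17 and 3.53 in ED. Its change of 0.83 (adjusted p = 0.103) rested on those dim samples: it was 1.29 and called without replicate 1. Fosb changed by 0.55, Fosl1 by 0.17, Jun by -0.32, Atf3 by -0.10 and Ier3 by -0.75, with adjusted p from 0.162 to 0.853.

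In ES cells at 15 min, 0 of 9 members were called, against 0.463% of all genes tested. Fos read 1.32, 1.39 and 1.49 in ESRE, within the range of unirradiated ES cells, with a change of -0.03 (95% interval -0.57 to 0.51). Egr1 read 0.52, 0.54 and 0.53, above the 3 ES samples by a narrow margin, with a change of 0.23 (95% interval -0.28 to 0.74). Fosb, the single member with an unadjusted p under 0.05, read -3.17, -3.12 and -4.11 against -2.68, -2.95 and -2.68 in ES (change -0.70, adjusted p = 0.357). Ier3 changed by -0.41, Jun by -0.35, Fosl1 by -0.32, Atf3 by -0.25, Egr2 by 0.17 and Junb by 0.08, with limma adjusted p from 0.641 to 0.998. The methods' t-test, two-sided, also called 0 members, before and after adjustment.

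**Figure D2:**
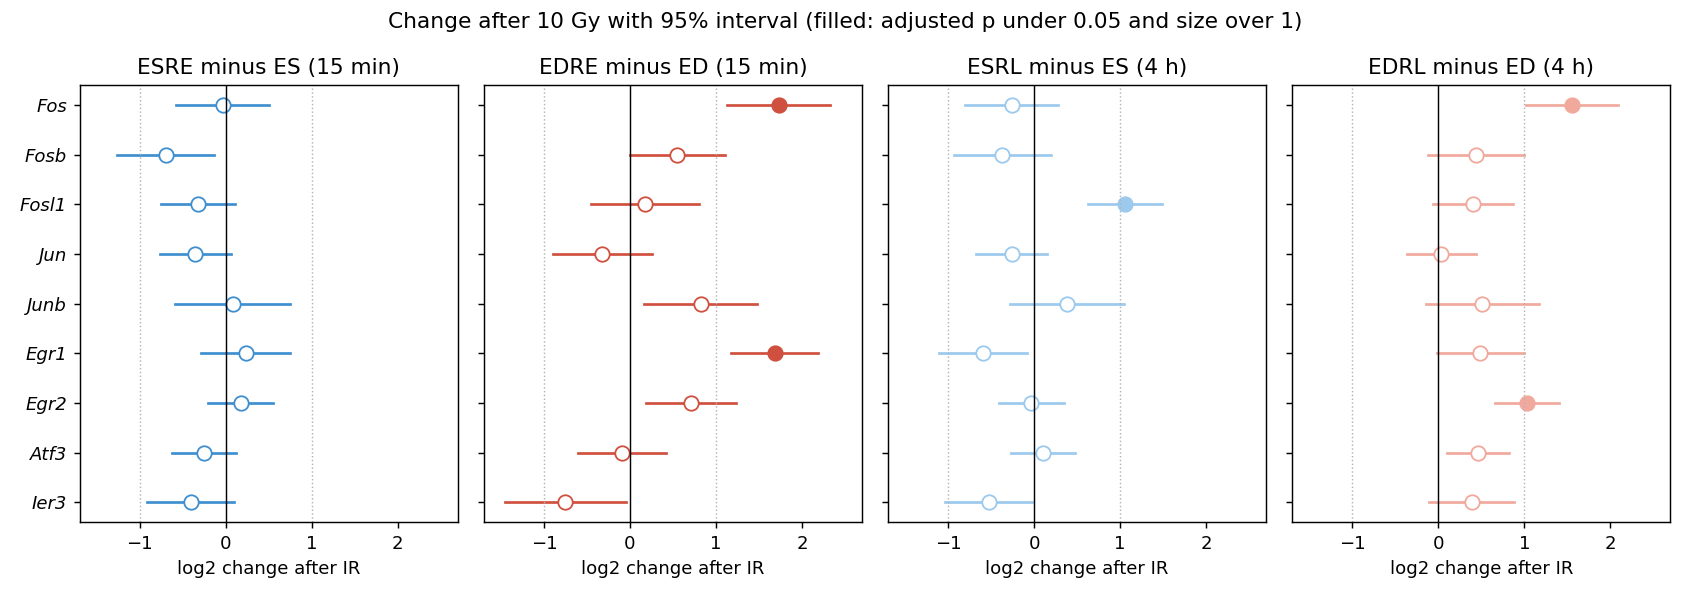
Log2 change of the 9 members tested after 10 Gy against unirradiated cells of the same kind, at 15 min and at 4 h, with 95% intervals from the model over all 18 arrays. Filled points are called; these are Egr1 and Fos in EDRE (1.68 and 1.73), Fosl1 in ESRL (1.06), and Fos and Egr2 in EDRL (1.55 and 1.03).

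At 4 h, Fos was still higher in irradiated ED cells, Egr2 was called there as well, and in ES cells Fosl1 was higher. Fos read 0.08, 0.05 and 0.09 in EDRL, a tight group above all 3 ED samples, with a rise of 1.55 (SE 0.25, adjusted p = 0.00341), or 2.94-fold. Egr2 read -1.02, -1.42 and -1.28 in EDRL against -2.48, -2.22 and -2.10 in ED, also without overlap, a rise of 1.03 (SE 0.17, adjusted p = 0.0058), or 2.04-fold. Its size sat just past the limit, and it lost its call without ED replicate 1 or without EDRL replicate 1 (as low as 0.92) and at 1.00 after quantile normalization. Egr1 read 0.93, 0.98 and 1.12 in EDRL, above all 3 ED samples, with a change of 0.49 (95% interval -0.02 to 0.99) that did not pass. The 2 members called compare with 1.66% of all genes tested.

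The rest of the family in EDRL also did not pass. Atf3 read 2.14, 2.15 and 2.11 against 1.57, 1.56 and 1.88 in ED, without overlap but with a change of 0.46 (adjusted p = 0.213). Junb (0.51), Fosb (0.44), Fosl1 (0.40), Ier3 (0.39) and Jun (0.03) had adjusted p from 0.453 to 0.967. With slide as a random block the calls of Fos and Egr2 were lost (adjusted p = 0.174 and 1). That setting called 33 of 23209 genes tested in this comparison.

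Fosl1, whose FRA-1 product accumulates late in AP-1 responses and is itself an AP-1 target, was the 1 member called in ESRL, against 7.59% of all genes tested. It read -0.91, -1.31 and -1.22 in ESRL and -1.87, -2.28 and -2.46 in ES. The groups did not overlap, and the rise was 1.06 (SE 0.19, adjusted p = 0.00803), or 2.08-fold. It was not called without ES replicate 3 (0.93), without ESRL replicate 1 (0.94) or under normexp background correction (0.94). Nor was it called with only the groups compared in the model (adjusted p = 0.0821) or with slide as a random block (adjusted p = 1). Those last settings called 403 of 25385 and 0 of 25599 genes tested. Fos in ESRL read 0.71, 1.76 and 1.03, on both sides of the ES values, with a change of -0.26 (95% interval -0.80 to 0.28). Egr1 read -0.41, 0.12 and -0.60, all below ES, with a change of -0.60 (95% interval -1.11 to -0.08, adjusted p = 0.137). Ier3 changed by -0.53 (95% interval -1.03 to -0.02, limma adjusted p = 0.179). Fosb changed by -0.37, Jun by -0.26, Egr2 by -0.03, Atf3 by 0.11 and Junb by 0.38, with limma adjusted p from 0.428 to 0.938.

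The samples at 4 h and at 15 min could be set within slides, which sets slide aside for those arrays. In ES cells, 1 of 9 members was called, against 5.22% of all genes tested: Fosl1 was higher in ESRL than in ESRE by 1.38 (SE 0.19, adjusted p = 0.00195), or 2.61-fold. On the slide shared by both groups, ESRL replicates 2 and 3 read -1.31 and -1.22 and ESRE replicates 1 and 2 read -2.56 and -2.70. With slide as a fixed block the rise was 1.37 (adjusted p = 0.00628), and with slide as a random block it was 1.37 (adjusted p = 0.00089). It was called in 6 of 6 fits that left out 1 of the arrays compared, but not with only the groups compared in the model (adjusted p = 0.0527). Egr1 differed by -0.83 and was not called (adjusted p = 0.0533), but passed without ESRL replicate 2 (-1.03).

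In ED cells, Egr1 was lower at 4 h than at 15 min. Together with Ier3, which rested on 1 EDRE value, 2 of 9 members were called, against 7.78% of all genes tested. Egr1 fell by 1.19 (SE 0.24, adjusted p = 0.0085) and read 1.64, 2.61 and 2.36 in EDRE against 0.93, 0.98 and 1.12 in EDRL, without overlap. On the slide that held EDRE replicate 1 and all 3 EDRL samples, the gap was -0.63 and was not called with slide as a fixed block (adjusted p = 0.265) or as a random block (-0.71, adjusted p = 0.123), and without EDRE replicate 2 the change was -0.99. Ier3 read 2.90 in EDRE replicate 1 and 4.16, 4.00 and 3.94 in EDRL, a difference of 1.14 (SE 0.32, adjusted p = 0.0421) with no spread of its own in EDRE. All 4 of these arrays lay on 1 slide, and the call was kept with slide as a fixed or as a random block, still on 1 EDRE value. The marked EDRE spots read 3.38 and 3.26, which with outlier spots kept gave 0.85 (adjusted p = 0.0234), under the limit of size, as did array median scaling with 0.95 (adjusted p = 0.157). Ier3 was called in 0 of 5 fits that left out 1 of the arrays compared (adjusted p from 0.0614 to 0.109). Fos differed little between EDRL and EDRE (-0.18, 95% interval -0.77 to 0.42).

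**Figure D3:**
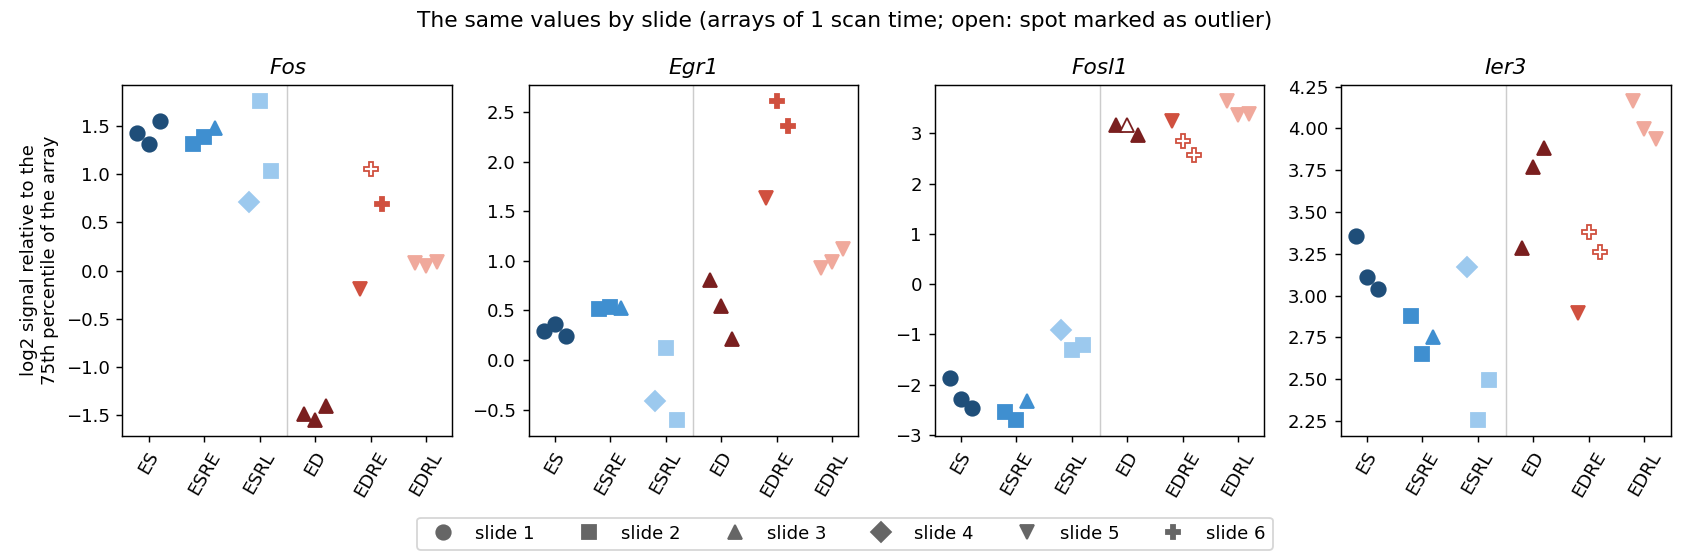
Fos, Egr1, Fosl1 and Ier3 on each array as log2 signal relative to the 75th percentile, with the marker shape giving the slide (arrays of 1 scan time) and open markers for spots marked as outliers. Slide 2 holds 2 samples each of ESRE and ESRL, where Fosl1 is higher at 4 h, and slide 5 holds EDRE replicate 1 with the 3 EDRL samples, where Egr1 differs by -0.63 and Ier3 by 1.14.

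Whether the change after IR differed between the cell types was tested as an interaction, the change in ED minus the change in ES. At 15 min, 2 of 9 members were called, against 2.09% of all genes tested: Fos at 1.76 (SE 0.38, adjusted p = 0.0342) and Egr1 at 1.45 (SE 0.34, adjusted p = 0.0454). At 4 h, Fos was called at 1.82 (SE 0.36, adjusted p = 0.0274), 1 of 9 members against 1.16%. The values behind Fos at 4 h were a rise of 1.55 in ED cells and a change of -0.26 in ES cells. Leaving out 1 of the 12 arrays compared ended most of these calls: Fos was called in 2 of 12 fits at 15 min and 3 of 12 at 4 h, and Egr1 in 1 of 12, with changes no lower than 1.25. With EDRE replicate 1 alone, the interaction at 15 min was 1.32 for Fos (adjusted p = 0.106) and 0.88 for Egr1 (adjusted p = 0.242). With slide as a random block the adjusted p was 1 for all 3. Normexp background correction ended these calls too (adjusted p = 0.105 and 0.238 for Fos, 0.101 for Egr1). Over all genes tested, the random block called 0 at either time, and normexp called 54 at 15 min and 18 at 4 h. The lost calls are thus not particular to Fos and Egr1. Egr1 was also not called after quantile normalization, without the detection filter, with only the groups compared in the model or with a replicate block (adjusted p from 0.0575 to 0.0602). Egr2 at 4 h (1.06, adjusted p = 0.0661), Egr1 at 4 h (1.08, adjusted p = 0.148) and Fosl1 at 4 h (-0.66, adjusted p = 0.321) did not pass, so the rise of Fosl1 in ES cells was not shown to differ from that in ED cells.

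The order of Fos levels, by group mean, ran from ED (-1.48 ± 0.07, SD, n = 3) through EDRL (0.07 ± 0.02, n = 3) and EDRE (0.25 ± 0.63, n = 2) to ESRL (1.17 ± 0.54, n = 3), ESRE (1.40 ± 0.08, n = 3) and ES (1.43 ± 0.12, n = 3). EDRL and EDRE were not separated beyond their spread, nor were the 3 groups of ES cells from each other. After IR Fos in ED cells thus lay between the unirradiated levels of the 2 cell types. Egr1 was highest in EDRE (2.20 ± 0.51, n = 3), then EDRL (1.01 ± 0.10, n = 3), with ED (0.52 ± 0.30, n = 3), ESRE (0.53 ± 0.01, n = 3) and ES (0.30 ± 0.06, n = 3) close together and ESRL (-0.30 ± 0.37, n = 3) lowest.

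The Ier2 spot, which has no test, gave values that must be read with its marks. It read 4.36, 4.16 and 4.08 in ES, from 4.37 to 4.57 in the 6 irradiated ES samples, 3.05, 2.98 and 3.33 in ED and 3.61, 3.57 and 3.38 in EDRL. In EDRE, replicate 1 read 2.94 and the dim replicates 2 and 3 read 0.29 and -0.10, with processed signals of 1070 and 1080 against 23240 on replicate 1. With outlier spots kept, Ier2 was called lower in EDRE than in ED (-2.08, adjusted p = 0.0313) and higher in EDRL than in EDRE (2.48, adjusted p = 0.00771), on the strength of those 2 arrays.

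Other genes of the pathway were taken from 4 lists. Among 14 relatives of the AP-1, Egr and ATF families, 12 were tested in ED against ES, 5 were higher and 2 lower, against 41.5% of all genes called, with a median change of 0.52 against -0.19 over all probes. Atf5 (4.46, on 1 ES value), Fosl2 (3.56), which encodes FRA-2, Jdp2 (2.98), Atf4 (2.19) and Maff (1.12) rose, and Egr4 (-2.24) and Batf fell. Batf was not well above background on any ED array and was at least 3.80-fold lower, a bound set by the dimmest probes that were. After IR, 0 of these relatives were called against unirradiated cells in either cell type at either time, by limma or by the methods' t-test, and 1 to 4 per comparison had an unadjusted p under 0.05. Between times, Egr3 was lower in ESRL than in ESRE (-1.34, adjusted p = 0.0456), with 1 of 3 ESRL arrays well above background. Fosl2 was lower in EDRL than in EDRE (-1.49, adjusted p = 0.0335). These were 1 of 12 and 1 of 11 relatives tested, against 5.22% and 7.78% of all genes.

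Of 38 further immediate early genes, 33 were tested in EDRE against ED, with 2 higher and 1 lower, against 5.2% of all genes called, and a median of 0.23 against 0.03 over all probes. Klf6, a zinc-finger factor, rose by 1.17 (adjusted p = 0.017) and Btg2, an antiproliferative p53 target, by 1.87 (adjusted p = 0.0267), while Dusp6, a phosphatase that turns off ERK, fell by 1.07 (adjusted p = 0.0156) on 1 EDRE value. At 4 h in ED cells Btg2 alone was called (2.18, adjusted p = 0.0144), 1 of 33 against 1.66% of all genes. In ED against ES, 7 of 33 were higher and 10 lower, against 41.5% of all genes called, with a median of -0.60 against -0.19 over all probes. In ESRE and in ESRL, limma called 0 genes of this list, against 0.463% and 7.59% of all genes tested. An unadjusted p under 0.05 was found for 6 and 13, and the methods' t-test without adjustment called 1 in each. The interaction at 15 min was called for Klf6 (1.62, adjusted p = 0.0332) and Dusp6 (-1.32, on 1 EDRE value). That was 1 higher and 1 lower of 32 genes tested, against 2.09% of all genes. At 4 h it was called for Zfp36 (1.14, adjusted p = 0.0345), which encodes an RNA-destabilizing protein, 1 of 32 against 1.16%. From EDRE to EDRL, Klf6 fell by 1.68 and 1 of 3 Homer1 probes rose by 1.07 (adjusted p = 0.00116 and 0.0473). Ccn1 (-1.09) and Dusp6 (1.27) were also called there, each on 1 EDRE value, so that 4 of 32 genes were called against 7.78% of all.

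Of 19 upstream factors and kinases, 17 were tested in ED against ES, with 7 higher and 3 lower, against 41.5% of all genes called, and a median of 0.91 against -0.19. The ETS partners of serum response factor, Elk3 (3.39), Elk1 (2.24, with 1 of 3 ES arrays well above background) and Elk4 (1.33), and the Egr corepressors Nab1 (3.07) and Nab2 (2.84) were among those that rose, while Egfr (-7.06 and -2.50 by 2 probes), Mapk8 (-1.57) and Mapk9 (-1.06) fell. In EDRE against ED, Map2k1, which encodes MEK1, rose by 1.00 (adjusted p = 0.0335), and 1 of 3 Creb1 probes fell by 1.66 (adjusted p = 0.0408), 2 of 17 genes against 5.2%. In EDRL against ED, 1 of 2 Egfr probes rose by 1.36 (adjusted p = 0.00616) and the other read -0.27. Egfr was 1 of 17 genes tested there, against 1.66% of all genes called. In ESRE and ESRL, limma and the methods' t-test called 0 of these factors, with 2 and 4 at an unadjusted p under 0.05. Limma called 0.463% and 7.59% of all genes tested there.

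Of 11 AP-1 target genes tested in ED against ES, 7 rose and 1 fell, against 41.5% of all genes called, with a median of 2.28 against -0.19 over all probes. The adhesion receptor gene Cd44 (4.80 to 4.90 by 3 probes), the cyclin gene Ccnd1 (3.29) and Spp1 (2.28), which encodes osteopontin, were among those that rose, and Mmp9 (-2.67) fell. The matrix metalloproteinase genes Mmp3 and Mmp13 were not well above background on any ES array and were at least 131-fold and 113-fold higher in ED, the latter with values from 1 array each in ED, EDRE and EDRL. After IR, Spp1 rose in EDRE by 1.04 (adjusted p = 0.0327). Mmp13 also passed in EDRE against ED, but as a comparison of 1 array with 1 array no change is read from it, and 2 of 12 genes in all compare with 5.2%. In ESRE, ESRL and EDRL, limma and the methods' t-test called 0 genes of this list against unirradiated cells, and 1 to 3 had an unadjusted p under 0.05. Limma called 0.463%, 7.59% and 1.66% of all genes tested there.

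The genes with profiles most like Fos over the 18 arrays, by Pearson's r among 19746 probes, were Sostdc1 (0.964), Ssh3 (0.957) and Ephx4 (0.945). For Egr1 they were Pcm1 (0.931), Glis3 (0.931) and Ptger4 (0.929), and for Atf3 they were Rgs3 (0.961), Isl2 (0.956) and Nr1h3 (0.946). Outlier spots were kept here. Sostdc1 and Ephx4 had ED means of -8.97 and -8.76, under the -7.49 used as the bound for Batf in ED. Their r thus rests in part on values near the floor. The arrays share slides and fall into 2 cell types, so the r values describe likeness only.

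**Figure D4:**
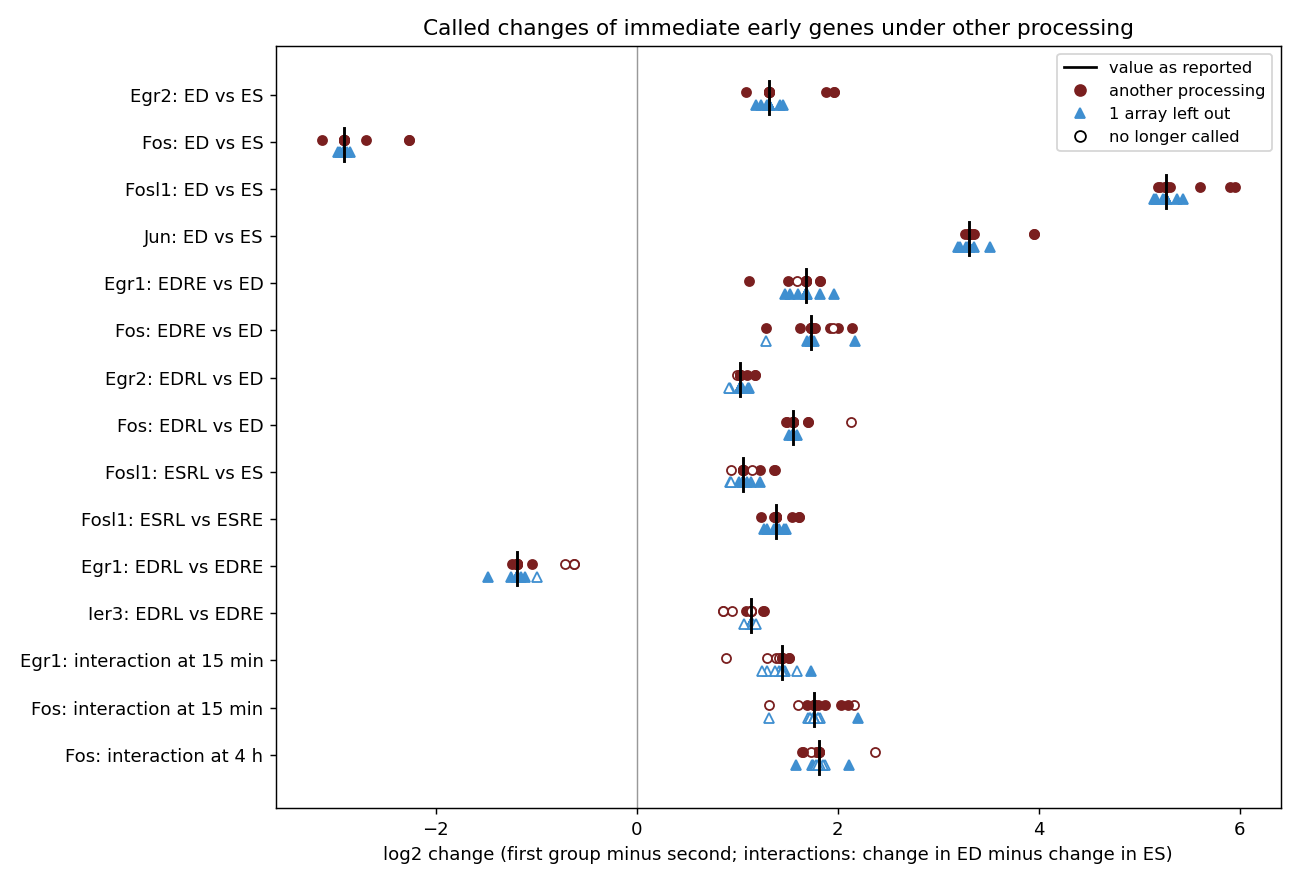
Log2 change of each of the 15 called results as reported (black line), under other processing (red circles) and with 1 array left out (blue triangles). Open symbols are no longer called. The 4 differences between ED and ES, Egr1 in EDRE, Fos in EDRL and Fosl1 from ESRE to ESRL were called in all fits with 1 array left out, and no called value changed sign.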

How the data were processed

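Gene expression was measured on Agilent one-color arrays, 1 for each of 18 samples. The deposited intensity of a spot is the processed signal of Agilent Feature Extraction (10.7.3.1 in the file headers, 9.1 in the submitters' processing notes), with background subtracted and no normalization across arrays. A second deposited table, of log2 values centered near the median of each array, served as an alternative.

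Of 39448 spots per array, 1417 control and 200 unmarked negative control spots were removed, leaving 37246 probes. Outlier spots were left out. The log2 signal was set relative to the 75th percentile. Testing a probe required every array of 1 or more of the groups compared to show it well above background, and a gene was called where any probe was. Groups were modeled over all 18 arrays in limma 3.58.1 (R 4.3.3), fitted separately by pattern of missing spots, with Benjamini-Hochberg adjustment over all probes tested. Calls needed an adjusted p below 0.05 and a log2 change larger than 1. Interactions were ED minus ES. The procedure was tested on simulated data. Members, lists and tests were chosen with earlier results of these data known. All members were named, though not in every comparison. Genes of other lists were named only where called, and not all of those called. The number of arrays limits precision. The alternatives were 15 other settings and 18 fits with 1 array fewer. Probe positions were not used, and the promoter table has its own build.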

Additional observations from a re-analysis of the deposited data

Results flagged for a closer look

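The difference between the cell types in the change after IR was called for Fos at 15 min (1.76) and at 4 h (1.82) and for Egr1 at 15 min (1.45), as interaction terms of the model over all 18 arrays, with adjusted p from 0.0274 to 0.0454. The largest adjusted p with 1 array left out was 0.121 for Fos at 15 min, 0.0869 for Fos at 4 h and 0.112 for Egr1 at 15 min. Slide was not separable from these differences. Groups of 3 samples were too small for a test of single samples that stand apart, though dim arrays and fits with 1 array left out are reported.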

How the results depend on the processing

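Members were compared 1042 times with another setting: 990 kept their call or lack of one, 40 lost a call and 12 gained one. Most of the 990 were uncalled results that stayed uncalled, and only called results could lose a call. Of those with a call, 0 changed sign. Uncalled changes could, as Fosl1 did in EDRE against ED (0.17, and -0.21 with outlier spots kept). With slide as a random block (consensus correlation 0.81 over 5839 probes) the members called fell to 0 in ESRL against ES, EDRE against ED, EDRL against ED and both interactions. Of all genes tested, 0 to 33 were called in these comparisons, so the lost calls are not particular to the members. Members called fell to 1 in EDRL against EDRE and to 3 in ED against ES. With only the groups compared in the model they were 0 in ESRL against ES, EDRE against ED, ESRL against ESRE and EDRL against EDRE. Of all genes tested, 0 to 403 were called in these comparisons. Members called were 1 in the interaction at 15 min and 2 in that at 4 h. The methods' t-test called 0 in the same 4 comparisons after Benjamini-Hochberg adjustment, and 1 before it in EDRL against EDRE. It could test only 4 members in EDRE against ED and in EDRL against EDRE, and it gives no interaction. Normexp gave 0 in ESRL against ES and in both interactions. Array median scaling gave 7 in ED against ES, 3 in EDRE against ED and 1 in EDRL against EDRE, and the deposited matrix 7 and 3 in the first 2 of these. With no limit of size 6 were called in ED against ES. Quantile normalization gave 5 in ED against ES, 1 in EDRL against ED and 1 in the interaction at 15 min, and no detection filter 1 in EDRL against EDRE and 1 in that interaction. Detection in all groups gave 2, and outlier spots kept 0, in the interaction at 4 h, and outlier spots kept gave 3 in EDRE against ED. Slide as a fixed block gave 1 in EDRL against EDRE, and EDRE replicate 1 alone gave 0 there and 0 in the interaction at 15 min. With the replicate block the interaction at 15 min fell to 1 and no other count changed. Samples with the same number shared only a number, with correlations of their deviations from -0.43 to 0.30 (median -0.02).

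With 1 array left out, 4 members were called in ED against ES in all fits, 0 in ESRE against ES, 0 to 1 in ESRL against ES, 1 to 3 in EDRE against ED, 1 to 2 in EDRL against ED, 1 to 2 in ESRL against ESRE, 0 to 2 in EDRL against EDRE, 0 to 4 in the interaction at 15 min and 0 to 3 in that at 4 h. Each member has 1 probe, so the alternative with other probes gave no value. Samples per group limit all comparisons, and dim arrays those with EDRE or ESRL.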
